A study of Mus musculus with 40 samples.

Results

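KAT6A (also MOZ) is a histone acetyltransferase, and the comparison described here is that of mouse embryos at E9.5 carrying a point mutation in its catalytic domain with WT embryos. The members are 8 of the 40 RNA-sequencing libraries of the series, chosen by their labelled genotype and stage: 4 whole embryos homozygous for Kat6a G656E with Kat6b WT (G656E/G656E, Kat6a E/E in the following) and 4 embryos WT for both genes. G656E replaces a glycine in the acetyltransferase domain by glutamate, and the comparison addresses what loss of the catalytic activity, rather than of the whole protein, does to embryonic gene expression. The allele was made by genome editing in C57BL/6J mice and is present in every cell of the embryo. Whole embryos were dissected, stage-matched by external appearance and stated to be male. The WT embryos came from 4 litters and the Kat6a E/E embryos from 3, and 1 litter (683) gave both WT replicate 2 and Kat6a E/E replicate 1. The remaining 16 E9.5 libraries, 4 each of Kat6a cfd/cfd (the Kat6a null allele), Kat6b dec/dec (the Kat6b null allele), Kat6b G577E/G577E (Kat6b E/E) and the double point mutant G656E/G656E with G577E/G577E (Kat6a E/E;Kat6b E/E), entered the same model and are used below only where the Kat6a E/E embryos are set against them. LSK cells (blood stem and progenitor cells without lineage markers that carry SCA-1 and c-KIT) sorted from E14.5 fetal liver of Kat6a E/E and WT animals, 4 libraries each, served as a second set of animals with these genotypes.

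KAT6A acts in a complex with a BRPF scaffold protein, an ING protein and MEAF6, and acetylates lysines of histone H3 at gene promoters and enhancers. In mice it is known for its part in haematopoietic stem cell maintenance, in the expression of Hox genes along the body axis and of Tbx genes in the heart and pharyngeal arches, and in holding off cellular senescence. Embryos without the protein have homeotic transformations and heart defects.

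The mutated codon is shown because it is the only designed difference between the groups. Kat6a lies on chromosome 8 from 23349545 to 23433275 on the plus strand of GRCm39, and the mutated glycine of its 2003 residues is encoded by GGC at 23416459 to 23416461, in exon 13 of 18. The reference coding sequence around it, from chr8:23416429-23416486, is printed with this codon in capitals.
Kat6a mutated codon: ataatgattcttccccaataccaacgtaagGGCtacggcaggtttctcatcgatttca

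WT libraries held 11823454 to 19078839 counts in genes and Kat6a E/E libraries 14135583 to 23339359. Levels are given as CPM, the count of a gene relative to the TMM-scaled total of its library, with a value for each embryo. For Xist, Ddx3y and the summed levels of blood and of visceral endoderm and liver bud genes, the total was not TMM-scaled. All 8 libraries matched the stated sex (Xist at 0.251 CPM or less, the Y-linked Ddx3y at 39.7 to 51.0 CPM), whereas 3 libraries of the 2 null genotypes had Xist at 525 CPM or more. WT replicate 4 stood apart in genes of visceral endoderm and liver bud and in genes of embryonic blood. The sum over the 22 genes listed for visceral endoderm and liver bud was 391 CPM. It was 179 to 187 CPM in the other WT embryos and 188 to 227 CPM in the Kat6a E/E embryos. For embryonic blood the sum was 4395 CPM, against 6328 to 6662 CPM in the other WT embryos. In bulk RNA of whole embryos, fewer cells of a type and less RNA per cell cannot be told apart.

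The targeted gene was read first. Kat6a was at 180.0, 169, 186 and 169 CPM in the WT embryos and at 217, 160.4, 153 and 178 CPM in the Kat6a E/E embryos, replicates 1 to 4 in this order here and below. The ranges overlapped, and the log2 fold change was 0.03 ± 0.09 (SE, FDR 0.949). A point mutation in the coding sequence need not alter the mRNA level, so the counts do not test the label of these embryos. Kat6b, the paralogue, was at 42.6, 38.2, 42.6 and 38.3 CPM in WT and at 44.7, 40.1, 37.8 and 39.7 CPM in Kat6a E/E embryos (log2 fold change 0.05 ± 0.06, FDR 0.869). None of the 11 genes for KAT6 complex subunits and related MYST acetyltransferases had an unadjusted p below 0.05, and the smallest p was that of Brd1, a scaffold subunit (log2 fold change 0.07 ± 0.05, FDR 0.688).

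Among 14183 protein-coding genes tested with limma, 39 genes (0.275%) differed between Kat6a E/E and WT embryos at FDR<0.05, where FDR is the p adjusted after Benjamini and Hochberg for the number of genes tested. Of these, 34 genes fell (0.24% of those tested) and 5 rose (0.0353%), while all genes together had a median log2 fold change of -0.0007 and 50.3% of them were lower. The changes were small: 34 of the 39 were under 1.5-fold, and the range was -1.02 to 0.30 on the log2 scale. The 4 values of each group did not overlap in 33 of the 39 genes, against 4.94% of all genes tested. Of the 34 genes that fell, 17 encode cytoplasmic ribosomal proteins. The other 17 were Srm, Ube2s, Rasl2-9, Akr1b1, Tomm40, Timm23, Actg1, Eif5a, Mycn, Atp5mg, Pcna, Ube2m, Nomo1, Nalf2, Hypk, Bex2 and Nudt21, and the 5 that rose were Trim7, Bmi1, Oat, Arap1 and Pdia3.

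**Figure D1:**
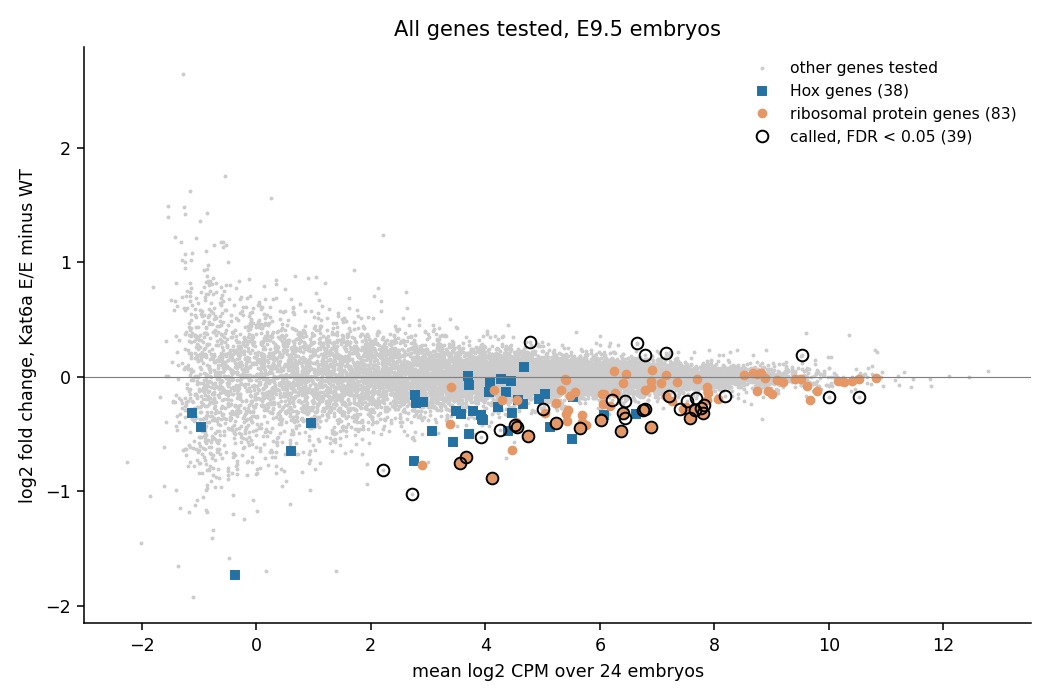
Log2 fold change of each of the 14183 genes tested (Kat6a E/E minus WT, y axis) against its mean log2 CPM over the 24 embryos (x axis). Rings mark the 39 genes called at FDR<0.05, orange points the 83 ribosomal protein genes and blue squares the 38 Hox genes. The rings sit between -1.02 and 0.30, 34 of them below the line at 0, and 36 of the 38 squares lie below it.

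The count of 39 depended on single libraries and on how unmeasured variation was modelled. It was 21 without WT replicate 1, 17 without WT replicate 2, 11 without WT replicate 4, 74 without Kat6a E/E replicate 1 and 19 without Kat6a E/E replicate 2. Without surrogate variables, which absorb variation not explained by genotype, it was 14 with limma, and 0 with the quasi-likelihood test of edgeR (821 genes at unadjusted p below 0.05). With sample weights in limma it was 0 (625 genes at unadjusted p below 0.05). Each of the 39 genes kept its direction with an unadjusted p of 0.0303 or less in all 23 alternatives.

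**Figure D2:**
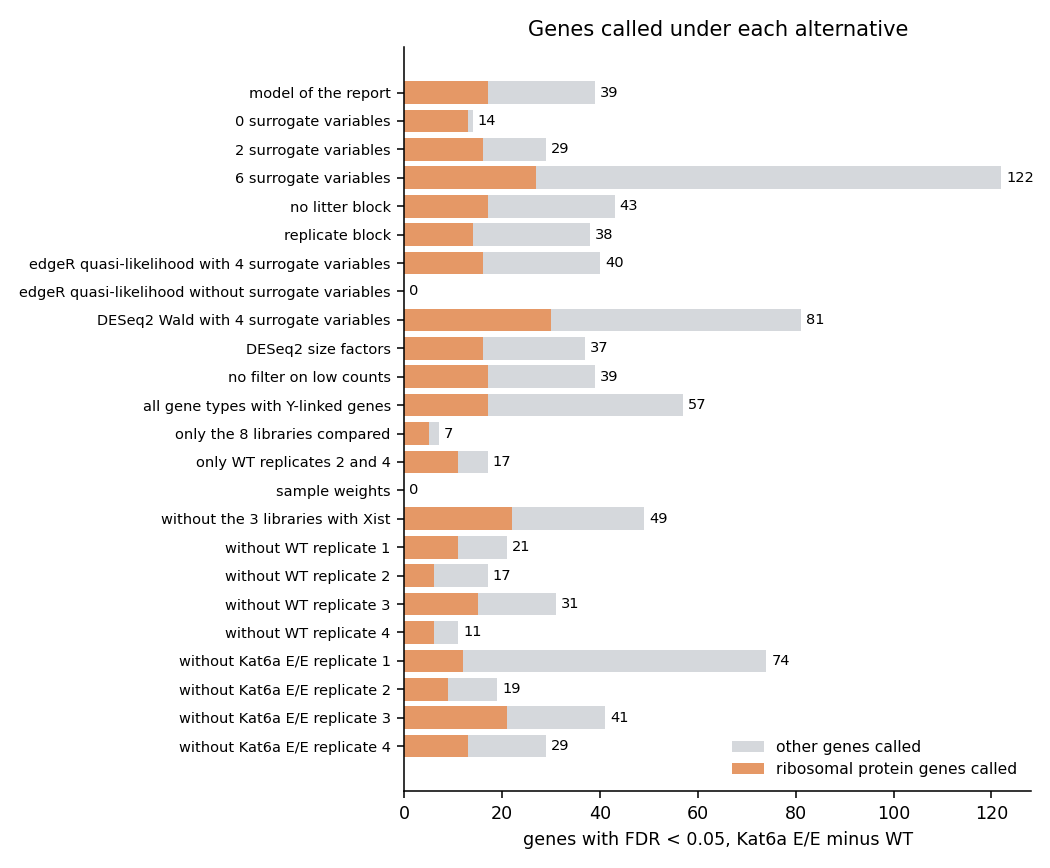
Number of genes with FDR<0.05 in Kat6a E/E minus WT (x axis) under the model of the report and 23 alternatives (y axis), with ribosomal protein genes in orange and other genes in grey. Bars run from 0 (edgeR without surrogate variables, sample weights) to 122 (6 surrogate variables), and 39 is the value of the report.

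Ribosomal protein genes were the largest group. Ribosomal proteins assemble with ribosomal RNA into the large (Rpl) and small (Rps) subunits, and their mRNAs are known for a run of pyrimidines at the very start of the transcript, through which their translation responds to growth signals. Of 83 such genes tested, 17 fell, none rose, and 75 were lower in Kat6a E/E embryos, with 45 lower and none higher at unadjusted p below 0.05 (5.75% of all genes were lower at that limit). Their median log2 fold change was -0.17. The large subunit had 14 called of 50 genes (48 lower, median -0.23) and the small subunit 3 called of 33 (27 lower, median -0.12), a difference between subunits that was not tested. The 66 genes that were not called ranged from -0.77 to 0.06.

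The start of the transcript is shown for 7 of the 8 ribosomal protein genes that fell and hold a run of pyrimidines there, as examples of this feature. The 40 bases run from 20 before to 20 after the annotated start, from RefSeq on GRCm38.p6, and capitals mark a C followed by at least 4 C or T that begins within 5 bases of the start.
Rplp2 (chr7:141447631-141447670, plus strand): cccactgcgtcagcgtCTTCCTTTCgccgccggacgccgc
Rpl38 (chr11:114668560-114668599, plus strand): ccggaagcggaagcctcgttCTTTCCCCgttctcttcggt
Rpl27a (chr7:109519175-109519214, plus strand): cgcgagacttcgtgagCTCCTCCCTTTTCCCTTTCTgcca
Rpl14 (chr9:120571497-120571536, plus strand): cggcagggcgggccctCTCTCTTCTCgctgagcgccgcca
Rpl7a (chr2:26910787-26910826, plus strand): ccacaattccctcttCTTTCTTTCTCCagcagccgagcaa
Fau (chr19:6057927-6057966, plus strand): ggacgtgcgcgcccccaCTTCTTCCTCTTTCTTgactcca
Rps6 (chr4:86857348-86857387, minus strand): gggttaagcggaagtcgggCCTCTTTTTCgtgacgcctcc

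A promoter window was found for 13 of the 17 called ribosomal protein genes, and 8 of these 13 (61.5%) held such a run on the transcribed strand. Among ribosomal protein genes that were not called it was 24 of 49 (49%), among the other genes that fell 3 of 15 (20%), among those that rose 2 of 5 (40%) and among all genes tested 2678 of 11297 (23.7%). The E-box CACGTG, the site of MYC-family factors, which reads the same on both strands, was in the window from 250 bases before to 50 bases after the start in 2 of 13 called ribosomal protein genes (15.4%), in 4 of 15 other genes that fell (26.7%), in 2 of 5 that rose (40%) and in 11.4% of all genes tested. These shares describe the windows at annotated starts only, and a gene was counted if any of its starts matched. A link between the matches and the changes was not tested.

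Rplp2, an acidic stalk protein of the large subunit (Entrez gene 67186, chromosome 7 from 141027274 to 141034167), was at 106, 106, 92.2 and 93.2 CPM in WT and at 68.0, 66.8, 83.4 and 69.7 CPM in Kat6a E/E embryos. It had the smallest p of all genes, with a log2 fold change of -0.47 ± 0.07 (SE) and FDR 0.0027, and its highest Kat6a E/E value was that of replicate 3. Rpl23a, a large subunit protein near the exit of the nascent chain, was at 20.8, 26.1, 24.2 and 22.0 CPM in WT and at 11.9, 9.78, 14.4 and 13.7 CPM in Kat6a E/E embryos, a change of -0.88 ± 0.13 on the log2 scale (FDR 0.0027). Every Kat6a E/E embryo lay below every WT embryo for both genes.

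Rpl38, known from mice in which its mutation alters the axial skeleton and the translation of Hox mRNAs, was at 15.4, 16.4, 15.2 and 16.6 CPM in WT and at 8.38, 9.87, 12.1 and 9.83 CPM in Kat6a E/E embryos (log2 fold change -0.70 ± 0.11, FDR 0.003). Rps29, a small subunit protein mutated in some families with Diamond-Blackfan anaemia, was at 16.3, 17.3, 14.04 and 13.7 CPM in WT and at 9.56, 7.97, 9.55 and 9.57 CPM in mutants (-0.75 ± 0.13, FDR 0.0056). Neither gene overlapped between the groups, and the lowest Rps29 value was that of Kat6a E/E replicate 2. Rpl3, a core protein of the peptidyl transferase region, was at 233, 251, 241 and 253 CPM in WT and at 187, 175.5, 216 and 204 CPM in mutants (-0.31 ± 0.05, FDR 0.0029). Replicate 3 was again the Kat6a E/E embryo nearest to WT.

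A further 11 ribosomal protein genes that fell were Rpl37 (-0.52), Rpl19 (-0.45), Rpl24 (-0.43), Rpl10a (-0.43), Fau (-0.41), Rpl37a (-0.38), Rpl7a (-0.36), Rpl27a (-0.31), Rps6 (-0.29), Rpl14 (-0.29) and Rpl6 (-0.27), given as log2 fold changes. Fau encodes the small subunit protein RPS30 fused to a ubiquitin-like peptide, and Rps6 the protein phosphorylated downstream of mTOR. The groups did not overlap in any of the 17 genes. As a summary of the whole family, the geometric mean over the 83 genes was 122 ± 3.37 CPM (SD, n = 4) in WT and 106 ± 8.44 CPM in Kat6a E/E embryos. The Kat6a E/E values were 99.2, 103, 119 and 104 CPM against 118 to 126 CPM in WT, so that replicate 3 lay within the WT range. The 17 called genes had WT means of 15.3 to 245 CPM, whereas Rpl4, with the highest WT mean (1771 CPM), changed by -0.008. Summed over the 83 genes, the level was 21647 ± 415 CPM (SD) in WT and 20412 ± 1623 CPM in Kat6a E/E embryos. By this sum the WT range was 21035 to 21927 CPM, and Kat6a E/E replicate 3, at 22738 CPM, lay above it. Without this embryo 21 ribosomal protein genes were called, and without WT replicate 1, 2 or 4 or Kat6a E/E replicate 2 it was 11, 6, 6 and 9.

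**Figure D3:**
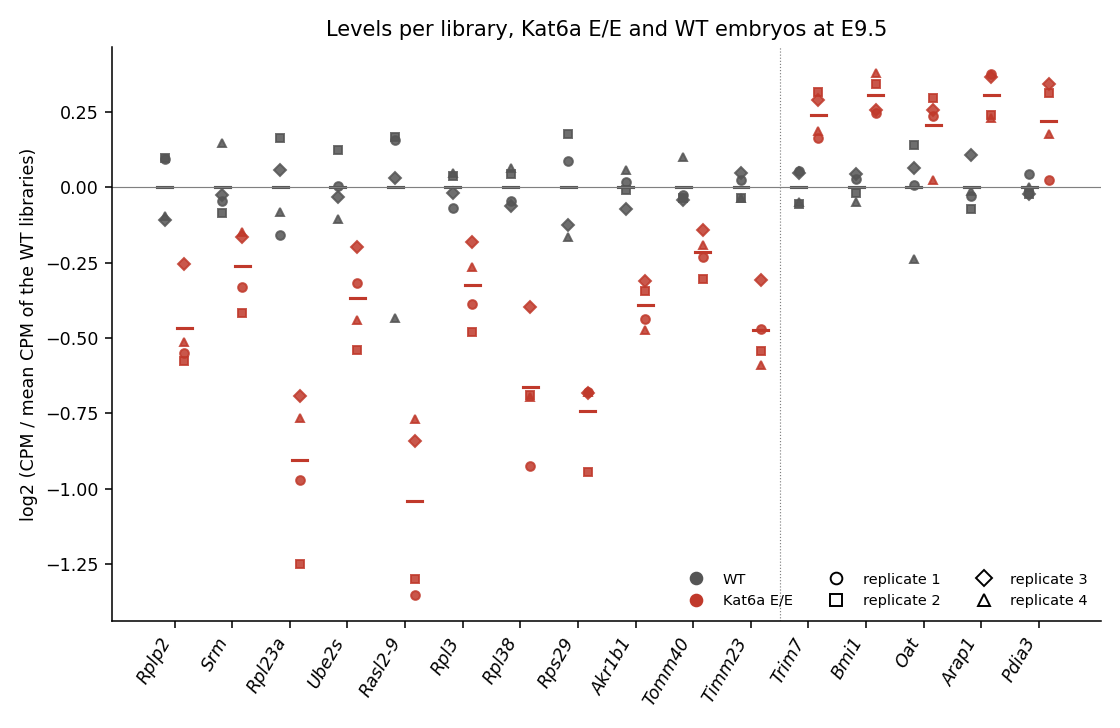
Level of 11 of the genes that fell, among those of smallest p (left of the dotted line), and of the 5 genes that rose, as log2 of CPM over the mean of the 4 WT embryos (y axis). Each point is an embryo (grey WT, red Kat6a E/E, symbols for the replicates) and each bar the mean CPM of a group on the same scale. The Kat6a E/E points lie below all WT points for the 11 genes on the left, and overlap with WT on the right only for Oat and Pdia3.

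Many of these genes have near-identical copies elsewhere in the genome, mostly processed pseudogenes, among which reads can be divided or lost. The share of 66-base words of the transcript that occur again in GRCm39 was therefore computed for 14093 of the genes tested. It was over 50% in 15 of the 39 called genes, 9 of them ribosomal protein genes and the others Actg1, Akr1b1, Atp5mg, Nudt21, Timm23 and Ube2s. Over all genes tested it was over 50% in 301, which is 2.14%. Within the ribosomal protein genes, the median log2 fold change was -0.05 in the 11 genes with a share above 0 and up to 10%, -0.15 in the 40 genes with 10 to 50% and -0.21 in the 29 genes above 50%. For other genes it was -0.002 in the 9794 with no such word and -0.04 in the 272 above 50%, of which 6 were called (2.21%). Rpl37 and Rpl37a, with shares of 8.09% and 4.54%, were called as well, and Mycn, Srm, Tomm40, Ube2m, Nalf2, Trim7, Oat, Arap1 and Pdia3 had a share of 0. By length, 22 of the 39 called genes were in the shortest 10% of the genes tested (204 to 1325 bases), 8 of them outside the ribosomal protein family. The part of copies and length in the result was not tested.

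**Figure D4:**
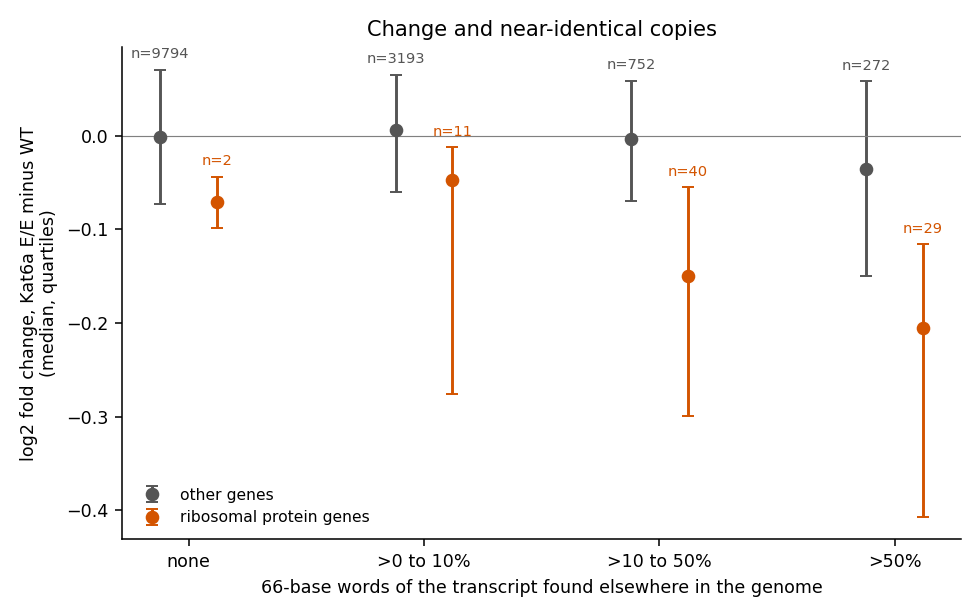
Log2 fold change of Kat6a E/E minus WT (y axis, median with quartiles) for genes grouped by the share of their transcript's 66-base words found elsewhere in the genome (x axis). Ribosomal protein genes (orange) have medians of -0.07, -0.05, -0.15 and -0.21 from left to right and other genes (grey) of -0.002, 0.007, -0.003 and -0.04, with the number of genes above each bar.

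Among genes of polyamine metabolism Srm and Eif5a fell and Oat rose. Srm encodes spermidine synthase, and spermidine is the donor for the hypusine that activates the translation factor encoded by Eif5a. Srm was at 233, 227, 236 and 267 CPM in WT and at 191, 180.2, 215 and 217 CPM in Kat6a E/E embryos, without overlap (log2 fold change -0.25 ± 0.04, FDR 0.0027). Eif5a changed by -0.17 ± 0.03 (FDR 0.0089). Of 21 genes of polyamine and ornithine metabolism these 2 fell and 1 rose, Oat, the mitochondrial ornithine aminotransferase. The median of the list was -0.05, and 0.275% of all genes tested were called. The gene lists of this report were drawn up with earlier results of these data known. Their counts of called genes are therefore not independent of these data. Oat was at 102, 112, 106 and 85.9 CPM in WT and at 119, 124, 121 and 103 CPM in mutants (0.19 ± 0.04, FDR 0.025), with 3 of 4 Kat6a E/E embryos above all WT embryos.

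Mycn, the MYC-family factor that drives growth of embryonic progenitors, was at 180.0, 161, 179 and 199 CPM in WT and at 156, 120.5, 129 and 162 CPM in Kat6a E/E embryos. Replicate 4 of the mutants overlapped with WT replicate 2, and the log2 fold change was -0.28 ± 0.06 (FDR 0.0198). Of 29 MYC-family and nucleolar growth genes it was the only one called, 24 were lower, 11 lower and none higher at unadjusted p below 0.05, and the median was -0.09.

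Other genes that fell encode mitochondrial proteins. Tomm40, the channel of the outer membrane translocase, was at 193, 192, 191 and 211 CPM in WT and at 167, 159, 178 and 172 CPM in mutants (log2 fold change -0.21 ± 0.04, FDR 0.0069). Timm23, the channel of the inner membrane translocase, was at 22.4, 21.5, 22.8 and 21.5 CPM in WT and at 15.9, 15.1, 17.8 and 14.7 CPM in mutants (-0.46 ± 0.08, FDR 0.0077). Both genes separated the groups. Atp5mg, a subunit of ATP synthase, was the only gene called of 85 nuclear-encoded genes of oxidative phosphorylation (-0.82 ± 0.17, FDR 0.0282), and the list had a median of -0.04.

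Ube2s, the ubiquitin-conjugating enzyme that extends chains for the anaphase-promoting complex, was at 99.0, 107, 96.5 and 91.8 CPM in WT and at 79.2, 67.9, 86.1 and 72.8 CPM in mutants (log2 fold change -0.36 ± 0.06, FDR 0.0027). Ube2m, the conjugating enzyme for NEDD8, changed by -0.19 ± 0.04 (FDR 0.0401). Pcna, the sliding clamp of DNA replication, changed by -0.16 ± 0.03 (FDR 0.0401), and with Ube2s it was 1 of the 2 genes called of 29 genes of cell cycle and mitosis, whose median was -0.04. Of the 29 genes 20 were lower, 9 of them and none higher at unadjusted p below 0.05.

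Rasl2-9, a single-exon gene related to the nuclear transport GTPase Ran, had the lowest ratio of all called genes. It was at 10.985, 11.1, 10.1 and 7.29 CPM in WT and at 3.86, 4.01, 5.50 and 5.78 CPM in Kat6a E/E embryos (log2 fold change -1.02 ± 0.16, FDR 0.0027). Akr1b1, an aldose reductase, was at 26.7, 26.2, 25.1 and 27.4 CPM in WT and at 19.5, 20.8, 21.3 and 19.02 CPM in mutants (-0.42 ± 0.07, FDR 0.0069). For both, all Kat6a E/E values lay below all WT values. The remaining genes that fell were Nalf2 (-0.53), a regulator of the sodium leak channel, Nudt21 (-0.28), a factor of mRNA cleavage and polyadenylation, and Hypk (-0.21), a partner of the N-terminal acetyltransferase complex. To these came Bex2 (-0.20), Actg1 (-0.18), cytoplasmic gamma-actin, and Nomo1 (-0.17), a membrane protein of the endoplasmic reticulum, all given as log2 fold changes.

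Bmi1, the Polycomb protein that represses the Cdkn2a locus and is known for protecting stem cells from senescence, rose in the mutants. It was at 95.1, 92.1, 96.2 and 90.2 CPM in WT and at 111, 118, 112 and 121 CPM in Kat6a E/E embryos, so that the lowest mutant value lay above the highest WT value (log2 fold change 0.30 ± 0.06, FDR 0.0182). Commd3 lies directly before it on the plus strand of chromosome 2, from 18677221 to 18681045, and ends 247 bases before the start of Bmi1 at 18681292. Commd3 was at 21.6, 22.5, 25.6 and 22.4 CPM in WT and at 27.4, 30.5, 30.3 and 26.2 CPM in mutants, also without overlap, with a log2 fold change of 0.30 ± 0.07 and FDR 0.0511. It was the uncalled gene nearest to the threshold. Both genes lie on the plus strand, and transcripts that read from Commd3 into Bmi1 would be counted for both, which was not tested. Bmi1 was the only gene called of 10 tested CDK inhibitors and senescence genes, whose median was 0.03.

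The other genes that rose have varied functions. Trim7, a ubiquitin ligase that binds glycogenin, was at 134, 124, 133 and 125 CPM in WT and at 144, 160.3, 157 and 147 CPM in mutants (log2 fold change 0.21 ± 0.04, FDR 0.0175). Arap1, a GTPase-activating protein that acts on actin and on receptor traffic, was at 24.05, 23.3, 26.4 and 24.3 CPM in WT and at 31.8, 29.0, 31.6 and 28.7 CPM in mutants (0.30 ± 0.07, FDR 0.0441). Both were higher in every Kat6a E/E embryo than in every WT embryo. Pdia3, a disulfide isomerase of the endoplasmic reticulum, was at 704, 671, 672 and 683 CPM in WT and at 693, 847, 865 and 772 CPM in mutants (0.19 ± 0.04, FDR 0.0446), and replicate 1 of the mutants lay within the WT range. Of 16 genes of the unfolded protein response and amino acid stress none was called and 5 were higher at unadjusted p below 0.05, led by the chaperone gene Hsp90b1 (0.17 ± 0.05, FDR 0.19). The median of this list was 0.05, and without Kat6a E/E replicate 1 it was 0.14 with 5 genes called. Next to Commd3, the uncalled genes nearest to the threshold were Selenbp1 (0.77 ± 0.17, FDR 0.0542) and D17H6S56E-5 (0.20 ± 0.04, FDR 0.056).

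No Hox gene passed the test, but 36 of the 38 Hox genes tested were lower in Kat6a E/E embryos. Hox genes encode the homeodomain factors that specify position along the body axis, with low paralogue numbers expressed towards the head and high numbers towards the tail. At unadjusted p below 0.05, 15 were lower and none higher, and the median log2 fold change was -0.31. Hoxa3 was at 23.7, 26.5, 26.4 and 24.2 CPM in WT and at 21.4, 16.6, 20.4 and 19.02 CPM in mutants (log2 fold change -0.32 ± 0.08, FDR 0.0774). Hoxb5 was at 16.95, 18.95, 18.1 and 17.6 CPM in WT and at 14.49, 12.7, 11.9 and 14.52 CPM in mutants (-0.37 ± 0.09, FDR 0.0774). Both were among the 3 genes with the smallest p of the family, and their groups did not overlap.

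Paralogue groups 1 to 3 were lower in 8 of 8 genes (5 at unadjusted p below 0.05, median -0.29), groups 4 to 8 in 14 of 15 (7, median -0.21) and groups 9 to 13 in 14 of 15 (3, median -0.44). The posterior genes varied most between embryos of a group: Hoxc10 was at 17.9 ± 14.02 CPM (SD, n = 4) in WT and 13.4 ± 10.2 CPM in mutants, and Hoxd13 at 7.96 ± 6.02 and 4.00 ± 5.15 CPM. The number of Hox genes lower at unadjusted p below 0.05 moved with single libraries, from 15 to 5 without Kat6a E/E replicate 2, 6 without WT replicate 3, 7 without WT replicate 2, 10 without Kat6a E/E replicate 3, 24 without WT replicate 4 and 26 without Kat6a E/E replicate 1. The median stayed between -0.46 and -0.17 when each of the 8 libraries was left out.

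None of 7 T-box and forkhead genes of heart and arch development was called, and all 7 were lower. The study names these genes as reduced in Kat6a null embryos, set against the same WT embryos. It also cites earlier work on expression changes tied to heart defects in the absence of KAT6A. A high level in the shared WT embryos would favour both the choice of genes and a lower value here. The common direction is therefore not an independent result. Tbx5, the factor of the heart and forelimb fields, was at 15.3, 19.6, 21.3 and 23.9 CPM in WT and at 16.04, 14.8, 13.6 and 17.2 CPM in mutants, with overlap (log2 fold change -0.33 ± 0.10, FDR 0.222). Tbx1, the factor of the pharyngeal arches, was at 25.8, 25.3, 24.5 and 31.8 CPM in WT and at 18.7, 20.7, 26.8 and 26.3 CPM in mutants (-0.22 ± 0.09, FDR 0.407). For both genes the mutant values spread into the WT range. The other 5 had log2 fold changes of -0.12 (Tbx2), -0.52 (Tbx15), -0.29 (Foxa2), -0.10 (Foxc1) and -0.26 (Foxc2). Cardiac factors and sarcomere genes were not lower as a list: 6 of 23 were lower, the median was 0.15, and the smallest p was that of the myosin light chain gene Myl3 (0.39 ± 0.11, FDR 0.151).

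Genes that mark the tissues of the embryo gave no call. Medians were -0.09 for 20 genes of neural progenitors, 0.06 for 20 of early neurons, -0.10 for 13 of neural crest, -0.23 for 21 of somites and presomitic mesoderm, -0.01 for 15 of vascular endothelium and 0.04 for 8 of trophoblast and placenta. With each library left out, the median of the somite list ranged from -0.32 (without Kat6a E/E replicate 1) to -0.06 (without Kat6a E/E replicate 2), and that of early neurons from -0.08 (without WT replicate 4) to 0.08. The smallest p values of the last 5 of these lists belonged to Dcx (0.40 ± 0.14), Sox9 (-0.19 ± 0.07), Uncx (-0.43 ± 0.15), Egfl7 (-0.22 ± 0.05, FDR 0.0774) and Krt18 (0.21 ± 0.08), in log2 fold change. Uncx patterns the posterior compartment of somites and Egfl7 is secreted by endothelial cells. Tubulin genes (13, median -0.02, smallest p for Tubg1 at -0.10 ± 0.04) and genes of hypoxia and glycolysis (24, median 0.04, smallest p for Eno1 at -0.17 ± 0.06) had no call either. Of 25 actins and actin regulators Actg1 fell and Arap1 rose, and the median was -0.02.

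No gene of embryonic blood or of visceral endoderm and liver bud was called. Of 17 genes of embryonic blood 16 were higher in Kat6a E/E embryos (median 0.22, 0.09 to 0.34 with each library left out, none at unadjusted p below 0.05), led by the embryonic globin gene Hbb-bh1 (0.36 ± 0.28). The summed level of the 18 genes listed was 6974 to 9225 CPM in the mutants and 4395 to 6662 CPM in WT, without overlap. It ranged from 3437 to 14442 CPM in the other 16 embryos. For 20 genes of visceral endoderm and liver bud the median was -0.30, and it was -0.05 without WT replicate 4, -0.05 without Kat6a E/E replicate 4 and -0.44 without Kat6a E/E replicate 2. The smallest p was that of Apom (-0.84 ± 0.32), at 5.04 CPM in WT replicate 4 and 1.35 CPM or less in the other 7 embryos. The part of these tissues in the results above was not tested.

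The Kat6a mutation can also be read on the Kat6b E/E background, since by label the double point mutant differs from Kat6b E/E embryos by it. No litter held embryos of both of these genotypes, so litter and genotype cannot be told apart in this comparison. Its 8 embryos are other than the 8 compared above, but they were part of the joint fit that chose the 39 genes. Through the surrogate variables each had a weight of -3.93% to 6.02% in the Kat6a E/E minus WT difference (before precision weights), against 20.3% to 27.2% for each Kat6a E/E embryo. In this comparison 36 of the 39 genes differed in the same direction as in Kat6a E/E against WT (55.8% of all genes did), 26 of them at unadjusted p below 0.05 (12% of all genes in either direction), with a median change of 0.17 along that direction against 0.30. The 26 became 14 without surrogate variables and 7 in a fit of these 8 embryos alone, where 35 and 34 genes had the same direction. All 17 ribosomal protein genes were lower again, from -0.48 to -0.07, 13 of them at unadjusted p below 0.05. Of all 83 ribosomal protein genes 57 were lower there (median -0.07), and of the 66 that had not been called 40 were lower (median -0.03), with 6 lower and 3 higher at unadjusted p below 0.05. Rplp2 changed by -0.26 ± 0.07, Rpl23a by -0.48 ± 0.14 and Srm by -0.17 ± 0.04 on the log2 scale. Only 4 genes were called in this comparison (0.0282%), and Bmi1 was the only one among the 39 (0.34 ± 0.06, FDR 0.0391). Commd3 was also called there (0.50, FDR 0.0033).

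Mycn went the other way on the Kat6b E/E background, where it was higher with the Kat6a mutation (log2 fold change 0.18 ± 0.06, unadjusted p = 0.0065 in limma). The test of the difference between the 2 backgrounds called no gene at FDR<0.05 (910 genes, 6.42%, at unadjusted p below 0.05), and Mycn had the smallest FDR among the 39, at 0.153. The other 2 genes without the same direction were Hypk (0.03) and Nomo1 (0.01). On the Kat6b E/E background 16 of 38 Hox genes were lower with a median of 0.03, and for paralogue groups 9 to 13 the median was 0.69. The difference between the backgrounds was not tested for the family.

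**Figure D5:**
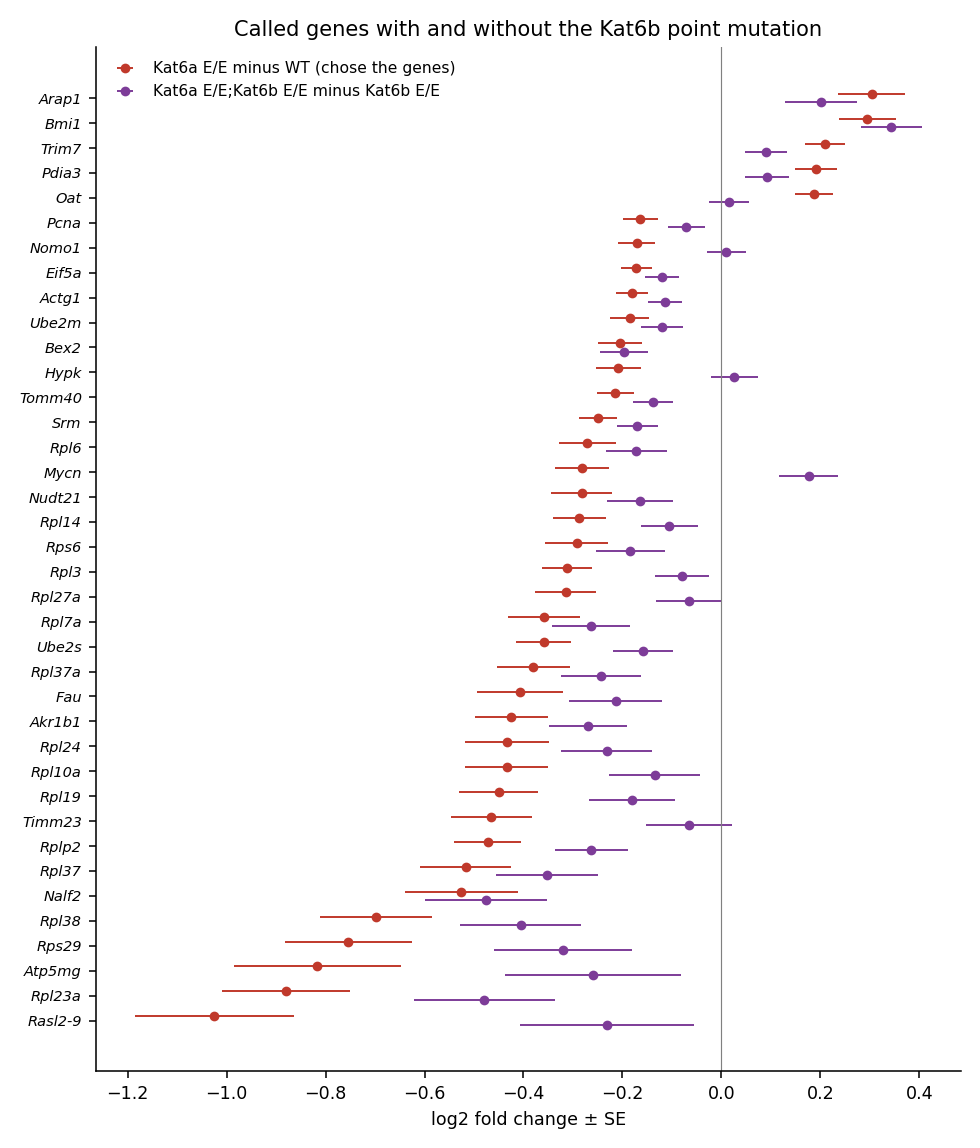
Log2 fold change with SE (x axis) of 38 of the 39 called genes (y axis) for Kat6a E/E minus WT (red), which chose the genes, and, in purple, from the same fit of 24 embryos, for the same mutation on the Kat6b E/E background (Kat6a E/E;Kat6b E/E minus Kat6b E/E). Purple points lie on the same side of 0 as red ones for 35 of these 38 genes, most of them nearer to 0, and Mycn has 0.18 against -0.28.

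In LSK cells of the fetal liver, 38 of the 39 genes were tested, and 31 differed in the same direction (52.8% of all genes did), 5 at unadjusted p below 0.05 (12.5% of all genes; 1 without Kat6a E/E replicate 1 and 2 without Kat6a E/E replicate 2 or without surrogate variables), and none was called among the 178 genes called in LSK cells (1.36%). Bmi1 changed by 0.24 ± 0.13 and Trim7 by 0.18 ± 0.08 on the log2 scale. Ribosomal protein genes were lower in 80 of 83 (54.1% of all genes were lower) with a median of -0.10, led among the called genes by Rpl14 (-0.25 ± 0.08). Of the 83, 12 were lower at unadjusted p below 0.05 (12.5% of all genes in either direction) and none was called. Their geometric mean overlapped between the groups, at 140 to 155 CPM in WT and 133 to 154 CPM in Kat6a E/E cells. WT replicates 1 to 3 and Kat6a E/E replicate 1 came from litter 753. In each LSK group 1 of the 4 libraries had Xist, at 1403 CPM in WT and 1129 CPM in Kat6a E/E cells.

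Levels in the other genotypes are given side by side, since contrasts with the Kat6a E/E or WT embryos share libraries with the choice of the genes. Of the 34 genes that fell, WT had the highest mean of the 6 genotypes in 27 and Kat6a E/E the lowest in 25. These genes were chosen by a lower level in Kat6a E/E than in WT embryos, which favours both counts. The shares over all genes are not given. Of the 39 called genes, 37 differed from WT in the same direction in Kat6b null embryos. In Kat6a null, Kat6b E/E and double point mutant embryos it was 38 each. The same WT embryos enter all of these differences. Rplp2 was at 99.5 ± 7.84 CPM (SD, n = 4) in WT and 72.0 ± 7.71 CPM in Kat6a E/E embryos. It was at 93.5 ± 5.40 CPM in Kat6a null, 74.8 ± 6.99 CPM in Kat6b null, 87.3 ± 8.92 CPM in Kat6b E/E and 74.7 ± 5.96 CPM in double point mutant embryos. The geometric mean of the 83 ribosomal protein genes was at 121 ± 4.76 CPM in Kat6a null embryos, near the 122 CPM of WT, and at 112 ± 4.56 CPM in Kat6b null, 118 ± 7.64 CPM in Kat6b E/E and 113 ± 2.49 CPM in double point mutant embryos. Bmi1 was at 93.4 ± 2.75 CPM in WT and 115 ± 5.18 CPM in Kat6a E/E embryos. Its mean was 101 ± 10.3 CPM in Kat6a null, 91.5 ± 5.89 CPM in Kat6b null, 92.3 ± 5.80 CPM in Kat6b E/E and 115 ± 11.2 CPM in double point mutant embryos. Mycn was at 142 ± 20.4 CPM in Kat6a E/E embryos and at 158 to 193 CPM in the means of the other 5 genotypes.

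Set directly against Kat6a null embryos in the same model, Kat6a E/E embryos differed in 227 genes (1.6%). The 4 Kat6a E/E libraries that chose the 39 genes also enter this contrast, and the log2 differences of Rplp2 (-0.33), Rpl23a (-0.65), Rpl10a (-0.44), Bmi1 (0.19) and Srm (-0.10) in it are given without a test. No gene was called between Kat6a E/E and Kat6b E/E embryos (700 genes, 4.94%, at unadjusted p below 0.05). Against double point mutants 20 genes were called (0.141%), and the log2 difference of Mycn was -0.31.

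Within litter 683, the Kat6a E/E embryo had 0.456 to 0.771 times the level of its WT littermate for the 17 ribosomal protein genes, 0.349 to 0.967 times for the other genes that fell and 1.03 to 1.37 times for the genes that rose. These 2 embryos also took part in choosing the genes. The remaining litters held embryos of only 1 of the 2 groups. Litter and genotype cannot be told apart in them beyond the random litter term of the model, whose correlation was 0.107. WT replicate 1 shared litter 5556 with Kat6a null replicate 2, and WT replicate 3 shared litter 3482 with Kat6b null replicate 2. With only WT replicates 2 and 4 kept, 17 genes were called. The part of litter origin in the results was not tested.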

How the data were processed

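The files hold, as deposited, raw counts of read pairs per RefSeq gene for 26411 genes in each of 40 bulk RNA-sequencing libraries. The authors aligned reads to mm39 with Rsubread and counted them with featureCounts, and the library kit does not mark the strand of the RNA. The labels and the study's methods differ in read length and instrument.

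Genes were matched to RefSeq by identifier (26359 of 26411), and 21030 protein-coding genes without Y-linked genes were passed to filterByExpr, which left 14183 at E9.5 and 13071 in LSK cells. The model was that of the study: TMM scaling, 4 surrogate variables (wsva) and voomLmFit with a random effect of litter and robust moderation (R 4.3.3, limma 3.58.1, edgeR 4.0.16), with all 24 E9.5 or all 16 LSK libraries in 1 fit. The procedure was tested on simulated data. p-values are two-sided, FDR is p adjusted after Benjamini and Hochberg within each comparison, and genes at FDR<0.05 are called. No pair of replicates had counts within sampling noise of each other.

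Members, gene lists and alternatives were chosen with earlier results of these data known. Named are Kat6a and Kat6b, all called genes, 7 T-box and forkhead genes, the 3 Hox genes with the smallest p, of each other list the called members or the smallest p, and the 3 uncalled genes nearest to FDR 0.05. Of these, 3 genes are not reported here. Values per embryo of Mycn, Oat, Arap1 and other genes are TMM-scaled CPM. Positions and words of 66 bases, every 3rd of a transcript, came from GENCODE vM39 on GRCm39, and windows at transcript starts from RefSeq on GRCm38.p6, found for 11297 of the genes tested. Alternatives were 0, 2 or 6 surrogate variables, no litter block, a replicate block, edgeR quasi-likelihood and DESeq2 1.42.0 tests, DESeq2 size factors, no filter, all gene types, only the 8 libraries, only WT replicates 2 and 4, sample weights, omission of each library and, chosen after seeing the data, omission of the 3 libraries with Xist.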

Additional observations from a re-analysis of the deposited data

Results flagged for a closer look

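Of 134 groups of 4 embryos examined for the named genes, 9 held a value set apart from the other 3 by more than Dixon's 95% criterion, and chance alone gives about 1 in 20 groups. Of these, 5 were in called genes: Rps29 in Kat6a E/E replicate 2 (7.97 CPM, the lowest), Tomm40 in WT replicate 4 (211 CPM, the highest), Rpl24 and Rpl7a in WT replicate 2 (29.6 CPM, the highest, and 202 CPM, the lowest) and Rps6 in Kat6a E/E replicate 3 (110.0 CPM, the highest).

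WT replicate 4 held the other 4: Eno1 at 898 CPM, Egfl7 at 60.2 CPM and Apom at 5.04 CPM were the highest of the WT embryos, and Hbb-bh1 at 837 CPM was the lowest.

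Xist was at 525 CPM in Kat6a null replicate 2, 618 CPM in Kat6b null replicate 2 and 739 CPM in Kat6b null replicate 3, where Ddx3y was at 0.199 CPM or less, although the embryos were stated to be male. They are not among the 8 embryos compared. Without them 49 genes were called, 35 of them among the 39.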

How the results depend on the processing

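The number of genes called was 39 in the model of the report. It moved to 14 with 0 and 122 with 6 surrogate variables, 81 with DESeq2, 7 with only the 8 libraries compared, 17 with only WT replicates 2 and 4, 0 with sample weights (625 at unadjusted p below 0.05) and 0 with edgeR without surrogate variables (821 at unadjusted p below 0.05). With each library left out it ranged from 11 (without WT replicate 4) to 74 (without Kat6a E/E replicate 1). It was 29 with 2 surrogate variables, 43 without a litter block, 40 with edgeR and 4 surrogate variables, 37 with DESeq2 size factors, 39 without a filter and 57 with all gene types. With a replicate block 38 genes were called, 30 of them among the 39. Replicate numbers did not pair the embryos (correlations of deviations of same-numbered WT and Kat6a E/E embryos of -0.068, 0.0451, -0.0059 and 0.311). No ribosomal protein gene was called higher in any of the 23 alternatives, and 0 to 30 were called lower. When each library was left out, 9 genes were called throughout, among them Rplp2, Srm, Rpl23a, Ube2s, Rasl2-9, Rpl3, Rpl38 and Rps29. Kat6a changed sign without WT replicate 2 (-0.005), WT replicate 4 (-0.006) and Kat6a E/E replicate 1 (-0.10), and Kat6b without WT replicate 2 (-0.0038), in ranges of -0.10 to 0.081 and of -0.0038 to 0.073 when each library was left out. Neither was called. No called gene changed sign, in fits that reuse all or most of the embryos that chose these genes. The number of the 39 genes with the same direction on the Kat6b E/E background ranged from 34 to 37, and in LSK cells from 27 to 33 of 38, when each library was left out. The causes of these shifts were not tested. At depths of 11823454 counts or more, genes near 1 CPM, such as Apom, rest on few reads.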

Other observations

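Of the 39 called genes, 9 lay on chromosome 7 (23.1%, against 7.73% of the genes tested): Rplp2, Ube2s, Rasl2-9, Tomm40, Rpl27a, Ube2m and Nomo1, which fell, and Oat and Arap1, which rose. The median log2 fold change of the 1097 genes tested on this chromosome was -0.01. The chromosome was chosen after its count was seen. Kat6a itself is on chromosome 8, where 2 of 735 genes tested were called.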
